A study of Mus musculus with 24 samples.

Results

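The S100 and HMGB alarmins and their receptor RAGE were followed as 9 genes, S100a4, S100a6, S100a8, S100a9, S100a10, S100a11, Hmgb1, Hmgb2 and Ager, found by symbol among the 55291 gene names counted in cultured mouse pulmonary fibroblasts. The cells came from the lungs of wild-type (WT) C57BL/6 mice and of TLR4-/- mice on the C57BL/6 background, all 4 to 8 weeks old. At passages 3 to 6, and after a night in the reduced-serum medium Opti-MEM, cells of each genotype were kept for 24 h with a vehicle of buffered saline (PBS), with rmCIRP (recombinant murine cold-inducible RNA-binding protein) at 1 μg/mL, with rmTGF-β1 (recombinant murine TGF-β1) at 2 ng/mL, or with both agents. CIRP is an RNA-binding protein that acts as an alarmin when it reaches the extracellular space, and TGF-β1 is the main profibrotic growth factor. Each of the 8 conditions held 3 RNA-seq libraries, 24 in all, and each group of fibroblasts was a pool of 3 to 4 lungs, so that p-values measure the spread between these libraries, which may be technical.

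S100 proteins are small calcium-binding proteins of the EF-hand family that act inside the cell and, once released, as danger signals. HMGB1 and HMGB2 are chromatin proteins that bend DNA, and HMGB1 released from stressed or dying cells is a textbook alarmin. Extracellular S100 and HMGB1 proteins are recognised by RAGE, an immunoglobulin-family receptor encoded by Ager. Several of them are also recognised by the toll-like receptor TLR4. In lung tissue RAGE is best known from alveolar type I epithelial cells, and the S100A8 and S100A9 pair from neutrophils and monocytes.

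Reads assigned to genes numbered 29853346 to 39664606 per library (median 33585047). Levels below are normalised read counts, that is, raw counts divided by a size factor per library, and differences are log2 fold changes from edgeR's quasi-likelihood test over 16258 genes, called at a Benjamini-Hochberg adjusted p below 0.1. Tlr4 itself was read at 630 to 802 normalised counts in the 12 WT libraries and at 702 to 941 in the 12 libraries labelled TLR4-/-. Within each treatment every library labelled TLR4-/- had more Tlr4 reads than every WT library, and with PBS the difference was 0.25 ± 0.06 on the log2 scale (edgeR adjusted p = 0.0012), higher where the label says that the gene is disrupted. Counts over the whole gene do not show which part of it was read, and the label is used as given. Fibroblast markers were abundant throughout. The summed level of 8 of them was 499900 to 541740 in WT with PBS and 470210 to 529260 in cells labelled TLR4-/- with PBS. The summed level of 14 macrophage markers was 93582 to 101820 in WT with PBS and 352950 to 402480 in cells labelled TLR4-/- with PBS, and the part of these cells in the genotype differences below was not tested. Replicate 3 of the TLR4-/- cells given both agents stood apart from its replicates. Its counts differed from theirs by 50.6 and 34.6 (chi-square per degree of freedom), against a median of 5.11 over the 24 pairs of replicates. This is the library said below to stand apart, and some of the results that rest on it are given with and without it. All conditions share 1 estimate of the spread, so it also affects the intervals of comparisons that do not use it. To a lesser degree, replicate 3 of the TLR4-/- cells given rmTGF-β1 alone differed from its replicates, by 13.1 and 17.2. Those replicates differed from each other by 3.84.

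Of the 9 genes, 8 passed the filter on low counts. S100a9 did not, with 0 reads in each of the 24 libraries among 812511211 reads in all. A count of 0 allows up to 3 counts, or 0.0756 CPM (the count scaled to the reads of the library) in the deepest library and 0.10 CPM in the shallowest, counting error only. Its partner S100a8, which lies beside it on chromosome 3, was read 79 to 373 times per library. Whether S100a9 transcripts were absent, or their reads were not assigned to the gene, was not tested. Per kilobase of exon in the GENCODE M21 models, WT cells with PBS held 39280 normalised counts of S100a6, 31790 of S100a11, 2923 of S100a10, 735 of Hmgb1, 657 of S100a4, 252 of Hmgb2, 191 of S100a8 and 14.8 of Ager. The cultures were therefore rich in S100a6 and S100a11 mRNA and held S100a8 and Ager mRNA at low levels. The S100a4 level is uncertain, since 302 of its 584 exon bases are shared on the same strand with Gm42674, a gene listed with 0 reads in every library.

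The stretches of 250 bases before the RefSeq start are shown for S100a8, the gene that rose most, for its neighbour S100a9, which had no reads, for S100a6, which fell, and for Hmgb2, described below beside markers of the cell cycle. RefSeq (GRCm38.p6) gave such a window for 8 of the 9 genes. The S100a8 window is chr3:90668821-90669070 (plus strand), that of S100a9 chr3:90695722-90695971 (minus strand), that of S100a6 chr3:90612644-90612893 (plus strand) and that of Hmgb2 chr8:57511593-57511842 (plus strand). Capitals mark matches, on either strand, to the AP-1 letters TGANTCA, the NF-κB ends GGG and CC held 5 bases apart, the CCAAT box, the cell cycle homology region TTTGAA or the C/EBP letters TTGNGNAA.
S100a8: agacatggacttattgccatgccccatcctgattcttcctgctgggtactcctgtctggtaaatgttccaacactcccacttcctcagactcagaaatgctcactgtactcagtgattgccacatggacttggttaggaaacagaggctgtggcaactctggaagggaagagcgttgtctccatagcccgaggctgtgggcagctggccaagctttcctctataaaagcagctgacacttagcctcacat
S100a9: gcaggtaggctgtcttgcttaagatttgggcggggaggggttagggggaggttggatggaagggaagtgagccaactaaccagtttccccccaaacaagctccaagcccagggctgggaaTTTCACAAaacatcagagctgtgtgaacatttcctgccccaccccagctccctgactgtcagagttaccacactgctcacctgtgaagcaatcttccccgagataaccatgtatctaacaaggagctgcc
S100a6: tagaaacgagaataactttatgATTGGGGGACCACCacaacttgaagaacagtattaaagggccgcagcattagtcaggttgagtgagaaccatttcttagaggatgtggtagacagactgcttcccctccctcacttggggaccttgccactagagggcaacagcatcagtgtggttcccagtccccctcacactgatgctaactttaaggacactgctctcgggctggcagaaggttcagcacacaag
Hmgb2: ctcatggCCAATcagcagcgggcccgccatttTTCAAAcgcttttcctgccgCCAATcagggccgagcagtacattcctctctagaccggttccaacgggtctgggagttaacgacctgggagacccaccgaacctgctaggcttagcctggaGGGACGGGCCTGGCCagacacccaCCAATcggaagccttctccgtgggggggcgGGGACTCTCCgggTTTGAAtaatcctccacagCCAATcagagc
The S100a8 window held none of these letters. That of S100a9 held a single C/EBP match that starts 130 bases before the start, and such a match is found in 11.7% of the 32851 RefSeq windows of this length. The S100a6 window held a CCAAT box on the minus strand running into an NF-κB match. The Hmgb2 window held 9 matches, 4 of them CCAAT boxes, 3 to the NF-κB motif and 2 to the cell cycle homology region. Among all windows, 33.8% held a CCAAT box, 45.8% the NF-κB motif, 16% the cell cycle homology region and 6.75% the AP-1 letters. A match describes the letters only and does not show that a factor binds there.

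The effect of extracellular CIRP in WT cells was the first question of the design. With rmCIRP, S100a8 and S100a10 rose and S100a6, S100a4 and Hmgb2 fell, while S100a11, Hmgb1 and Ager did not pass the test. These 5 of 8 tested genes stand against 43.9% of all genes called in this comparison, a share near that of the members, so the count itself is no result about the family. In direction, 2 of the 8 rose (19.8% of all genes) and 3 fell (24.1%), and the libraries of 4 did not overlap (50.8%). The 2 increases were the largest changes among the 8 genes.

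S100a8, which encodes a subunit of the neutrophil and monocyte protein calprotectin, had 117, 136 and 144 normalised counts in the 3 WT libraries with PBS and 262, 257 and 300.3 with rmCIRP. The groups did not overlap. The mean went from 132 ± 13.5 to 273 ± 23.6 (SD, n = 3), a log2 fold change of 1.04 ± 0.28 (SE; edgeR adjusted p = 0.0053). The rise was held in every fit that left out 1 library, between 0.98 and 1.10, and its SE was 0.15 without the library that stood apart. S100a9 stayed at 0 reads under rmCIRP, so the rise of S100a8 was not joined by counted reads of its partner.

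S100a10, the light chain that joins annexin A2 at the plasma membrane, had 3852, 3319 and 3458 normalised counts with PBS and 5192, 5070 and 5432 with rmCIRP. Every rmCIRP library lay above every PBS library. The log2 fold change was 0.56 ± 0.06 (SE; edgeR adjusted p = 4.89e-08), from 3543 ± 276 to 5232 ± 184 (SD, n = 3). Its partner Anxa2 moved the other way, with means of 31266 and 28134 and a log2 fold change of -0.16 ± 0.03 (edgeR adjusted p = 0.00068). Ahnak, the giant scaffold protein that binds the S100A10 and annexin A2 complex, fell from a mean of 13377 to 6847, a log2 fold change of -0.97 ± 0.05 (edgeR adjusted p = 4.21e-13).

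**Figure D1:**
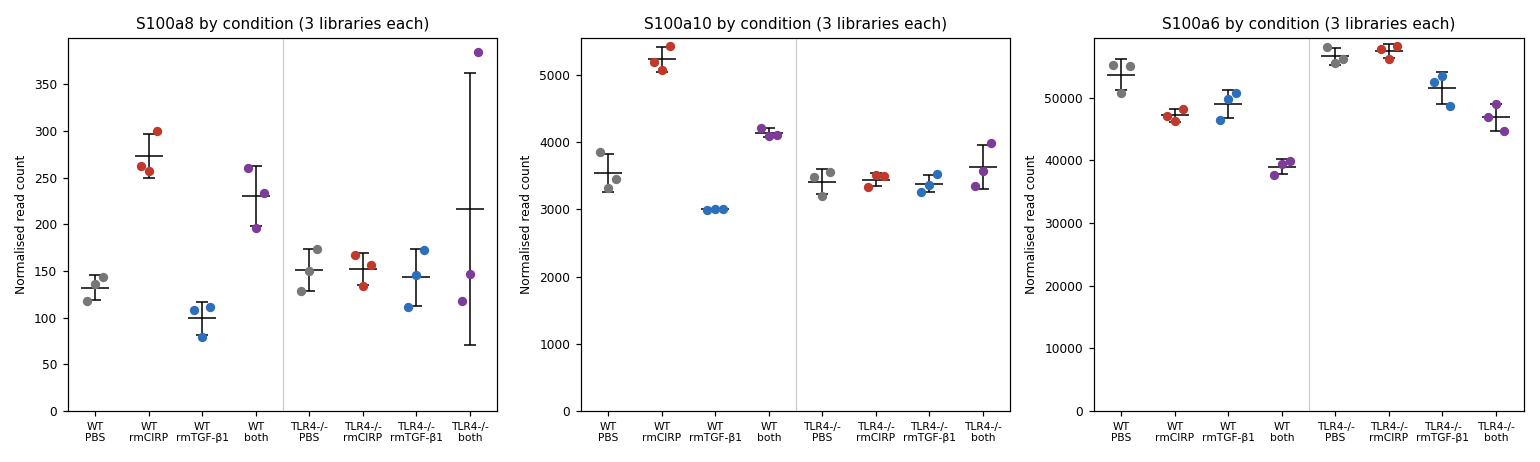
Normalised read counts (vertical axes, from 0) of S100a8, S100a10 and S100a6 in the 8 conditions, with 1 point per library and the mean ± SD of 3 libraries. S100a8 and S100a10 sit highest in WT cells with rmCIRP, S100a6 sits lowest in WT cells with both agents, and 1 library labelled TLR4-/- with both agents holds the highest S100a8 count of all, 384.

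S100a6 encodes calcyclin and was the most abundant member per length. It had 55212, 50766 and 55120 normalised counts with PBS and 47017, 46243 and 48242 with rmCIRP, again without overlap. The log2 fold change was -0.19 ± 0.05 (SE; edgeR adjusted p = 0.0018), from 53700 to 47167, small in proportion but the largest difference of a member in normalised counts in this comparison. Cacybp, which encodes the calcyclin-binding protein, rose by 0.63 ± 0.05 on the log2 scale (edgeR adjusted p = 2.48e-09).

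S100a4, also known as fibroblast-specific protein 1, had 356, 343 and 452 normalised counts with PBS and 345, 290.1 and 230.2 with rmCIRP, and the groups overlapped. Its log2 fold change was -0.42 ± 0.18 (SE; edgeR adjusted p = 0.070). The call was lost on leaving out replicate 3 of PBS (-0.29, edgeR adjusted p = 0.29) or replicate 2 (-0.41, edgeR adjusted p = 0.13) or 3 of rmCIRP (-0.26, edgeR adjusted p = 0.32). Hmgb2 had 828, 671 and 772 normalised counts with PBS and 635, 652 and 708 with rmCIRP, a log2 fold change of -0.19 ± 0.09 (edgeR adjusted p = 0.094). This call was lost in DESeq2 (adjusted p = 0.12) and in 10 of 24 fits without 1 library, and it lies at the edge of what the replicates can show.

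The 3 remaining tested genes bounded what rmCIRP could have done to them. S100a11, which encodes calgizzarin, had 16243 normalised counts with PBS and 15916 with rmCIRP, and the 95% interval of the log2 fold change ran from -0.15 to 0.08. Hmgb1 had 3693 and 3615, with an interval of -0.11 to 0.03, and its libraries overlapped. Ager had 26.9, 31.9 and 36.4 normalised counts with PBS and 38.2, 38.1 and 38.5 with rmCIRP. Although these libraries did not overlap, at no more than 39 raw reads per library the interval of the Ager difference was wide, from -0.18 to 0.71 (edgeR adjusted p = 0.36).

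**Figure D2:**
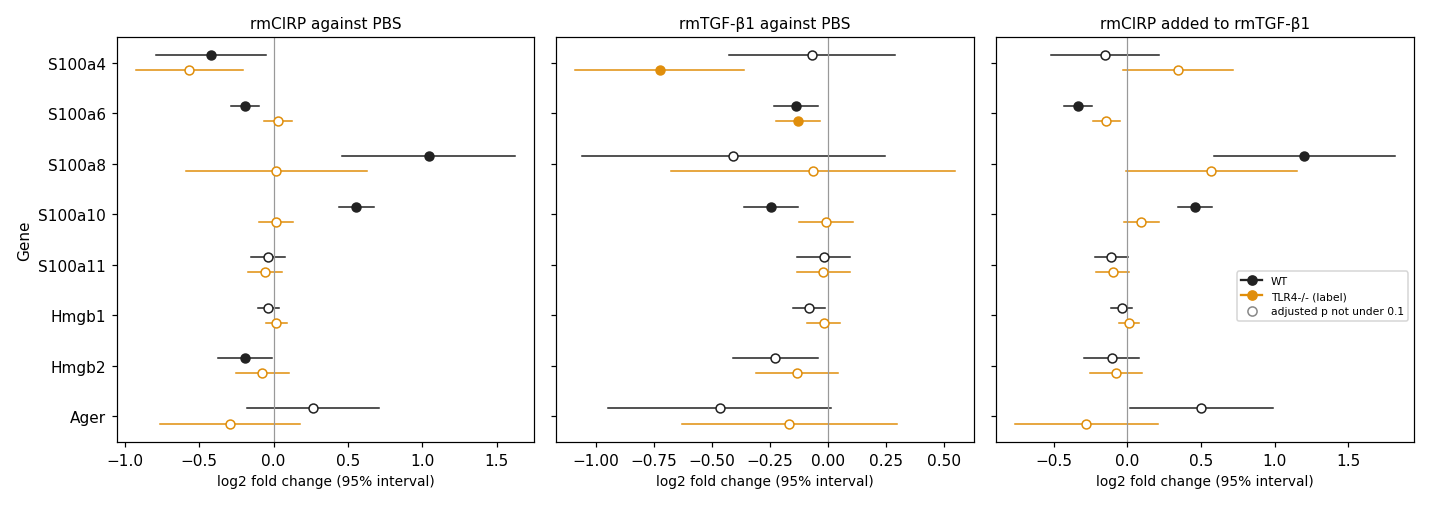
Log2 fold changes (horizontal axes) with 95% intervals for the 8 tested genes in WT cells (black) and cells labelled TLR4-/- (orange) under 3 contrasts. Filled points passed the adjusted p threshold of 0.1, and the WT increases of S100a8 (1.04) and S100a10 (0.56) under rmCIRP face values of 0.02 and 0.02 in cells labelled TLR4-/-.

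The rest of the S100 family mostly fell. Of 10 other S100 genes listed, 6 could be tested and 5 of these were lower under rmCIRP (24.1% of all genes), 0 higher (19.8%). Their median log2 fold change was -0.37 against -0.02 over all genes. S100a16 went from 2045 to 1570 normalised counts (-0.39 ± 0.06, edgeR adjusted p = 2.67e-05) and S100a13, a carrier for the release of interleukin-1α and fibroblast growth factor 1, from 966 to 759 (-0.35 ± 0.06, edgeR adjusted p = 6.92e-05). S100a3 was read at 16.2 and 4.14 normalised counts (-1.96 ± 0.43, edgeR adjusted p = 0.00087). S100a10 and S100a8 were therefore the S100 genes that rose among those tested. Hmgb3 fell by 0.29 on the log2 scale (edgeR adjusted p = 0.055), the same sign as Hmgb2, and Hmgb4 was at 0 in both groups.

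Among 9 other receptors and coreceptors for S100 and HMGB1 proteins, 3 rose and 1 fell, where 19.8% of all genes were called higher and 24.1% lower. Cd14, the coreceptor that hands ligands to TLR4, rose from 1569 to 5122 normalised counts (1.70 ± 0.11, edgeR adjusted p = 4.68e-11), Tlr2 from 841 to 2594 (1.62 ± 0.10, edgeR adjusted p = 8.65e-12) and Ly96, which encodes MD2, from 282 to 351 (0.31 ± 0.08, edgeR adjusted p = 0.0039). Trem1 fell from 207 to 149 (-0.48 ± 0.14, edgeR adjusted p = 0.0092). Tlr4 had 759 normalised counts with PBS and 753 with rmCIRP. Of 7 genes of RAGE signalling and shedding, 4 rose and 1 fell. The shedding protease gene Mmp9 rose by 1.09 on the log2 scale (edgeR adjusted p = 7.91e-09) and Myd88 by 0.51 (edgeR adjusted p = 1.17e-07), whereas Adam10, the other sheddase of RAGE, fell by 0.30 (edgeR adjusted p = 5.53e-07).

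Of the 7 S100 binding partners listed, 6 fell (24.1% of all genes) and 1, Cacybp, rose (19.8%). The 10 other alarmins split evenly, with 3 higher and 3 lower. Il1a rose from 44.0 to 8156 normalised counts (7.53 ± 0.21, edgeR adjusted p = 2.64e-17) and Il33 from 261 to 684 (1.39 ± 0.44, edgeR adjusted p = 0.016). Lgals3, which encodes galectin-3, fell by 0.73 (edgeR adjusted p = 3.25e-05), and Cirbp, the gene of CIRP itself, by 0.47 (edgeR adjusted p = 0.00015). The S100 and HMGB1 genes were thus in a different range from Il1a, the alarmin of these lists with the largest change.

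Markers of fibroblasts and of other cells moved in this comparison too, and the lists bear on S100a8, S100a4 and Hmgb2 in particular. Of 8 fibroblast markers 2 rose and 5 fell (19.8% of all genes were called higher and 24.1% lower). Their sum went from 499900 to 541740 with PBS down to 399220 to 438010 with rmCIRP. Of 10 neutrophil markers, 6 (Ly6g, Elane, Ngp, Ltf, Retnlg and Fcnb) had at most 3 reads in every library. The summed level of the 10 went from 36.9 to 52.0 with PBS to 189 to 210.1 with rmCIRP, carried by Camp (2.13 on the log2 scale, edgeR adjusted p = 2.67e-05) and Csf3r (2.41, edgeR adjusted p = 1.58e-09). Of 14 macrophage markers 4 rose and 9 fell, and their sum went from 93582 to 101820 down to 81273 to 86385. All 10 proliferation markers, Mki67 among them, fell, and their sum was 9985 to 13204 with PBS and 9186 to 9634 with rmCIRP, beside the lower Hmgb2. The 7 alveolar type I markers, which bear on Ager, summed to 153 to 212 with PBS and 143 to 165 with rmCIRP, with Cldn18 at no more than 3 reads throughout, and 4 of 5 alveolar type II markers were at no more than 3 reads. In bulk RNA, fewer cells of a type and less RNA per cell cannot be told apart. The part of these cells in the members' changes was not tested.

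rmTGF-β1 alone moved fewer of the genes in WT cells, and none upward. S100a10 and S100a6 fell, 2 of 8 against 12.4% of all genes called and 6.65% called lower. For 5 of the 8 genes the libraries did not overlap, against 29.7% of all genes. S100a10 had 2987, 3002 and 3010 normalised counts with rmTGF-β1, all below the 3 PBS libraries (log2 fold change -0.24 ± 0.06, SE; edgeR adjusted p = 0.0078). Without replicate 1 of PBS, the highest of its group, the value was -0.16 and the adjusted p was 0.10. S100a6 had 46434, 49860 and 50745 (-0.14 ± 0.05, edgeR adjusted p = 0.064), a call that was lost in 12 of 24 fits without 1 library. Both genes were therefore lower, with S100a6 at the limit of the test.

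S100a8 had 108, 79.0 and 112 normalised counts with rmTGF-β1, all below the PBS libraries, and its log2 fold change of -0.41 had a 95% interval of -1.06 to 0.24. Ager had 19.2, 25.0 and 24.5, also below PBS, with a change of -0.47 and an interval of -0.95 to 0.01 (edgeR adjusted p = 0.24). Hmgb2 changed by -0.23 (interval -0.41 to -0.04, edgeR adjusted p = 0.12) and Hmgb1 by -0.08 (interval -0.15 to -0.01, edgeR adjusted p = 0.15). None of these 4 passed the threshold. Among the other S100 genes 2 fell, S100a13 (-0.22, edgeR adjusted p = 0.021) and S100a1 (-0.14, edgeR adjusted p = 0.071).

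**Figure D3:**
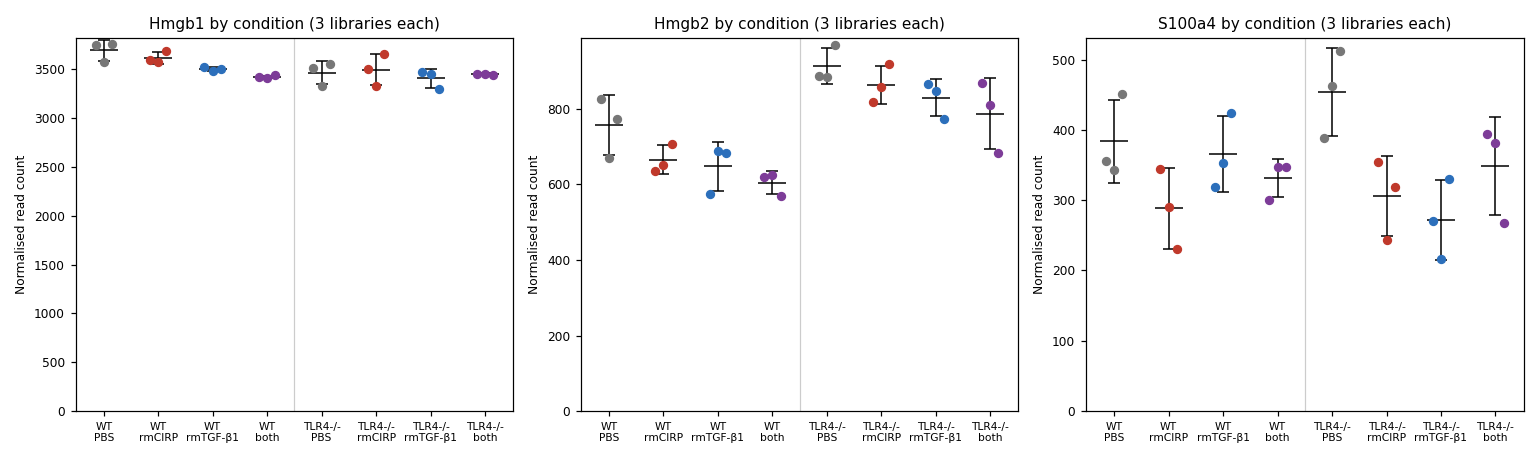
Normalised read counts (vertical axes, from 0) of Hmgb1, Hmgb2 and S100a4 in the 8 conditions, with 1 point per library and the mean ± SD of 3 libraries. Hmgb1 stays between 3298 and 3761 in all libraries, Hmgb2 is higher in the conditions labelled TLR4-/- than in the WT conditions, and S100a4 spreads widely within conditions.

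The design also asked whether the response to CIRP depends on TGF-β1. Where WT cells received both agents, 3 of 8 genes differed from rmTGF-β1 alone, against 42.2% of all genes, and the libraries of 6 did not overlap, against 50% of all genes. S100a8 had 260.0, 196 and 234 normalised counts with both agents, a log2 fold change of 1.20 ± 0.30 (SE; edgeR adjusted p = 0.0029). S100a10 had 4215, 4097 and 4102 (0.46 ± 0.06, edgeR adjusted p = 1.13e-06), and S100a6 had 37608, 39473 and 39880 (-0.34 ± 0.05, edgeR adjusted p = 4.33e-06). All 3 genes moved in the direction seen with rmCIRP alone, although the comparisons have no libraries in common. Ager had 36.7, 25.5 and 35.5 normalised counts, all above the rmTGF-β1 libraries (0.50 ± 0.23), just short of the threshold with an edgeR adjusted p of 0.1008, and passed it without the library that stood apart (0.50, edgeR adjusted p = 0.069). S100a11 gave -0.11 (edgeR adjusted p = 0.13) and likewise passed without that library, at -0.11 (edgeR adjusted p = 0.021).

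Read the other way, rmTGF-β1 on top of rmCIRP lowered S100a10 and S100a6, 2 of 8 genes against 20.5% of all called and 10.5% called lower. S100a10 fell by 0.34 on the log2 scale (SE 0.06, edgeR adjusted p = 0.00014) and S100a6 by 0.28 (SE 0.05, edgeR adjusted p = 0.00014). S100a8 and Ager gave values of -0.25 and -0.23 that did not pass. S100a10 was thus raised by rmCIRP and lowered by rmTGF-β1, and with both agents it took a middle place, 4138 ± 66.7 between 5232 and 2999. S100a6 was lowered by each agent, and its lowest level of all conditions was with both, 38987 ± 1212 (SD, n = 3). The test of an interaction between the agents in WT cells called 0 of the 8 genes (0.0492% of all genes), as did DESeq2. Of the 8, S100a6 alone had an unadjusted p under 0.05 (5.64% of all genes), with an interaction of -0.14 (interval -0.27 to -0.01, edgeR adjusted p = 0.84). For S100a10 it was -0.10 (interval -0.26 to 0.07) and for S100a8 0.16 (interval -0.69 to 1.01).

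In cells labelled TLR4-/-, rmCIRP called 0 of the 8 genes and 0 genes in all (0%), with 6.99% of all genes at an unadjusted p under 0.05, while DESeq2 called 33 genes and none of the 8. S100a8 had 128, 151 and 173 normalised counts with PBS and 167, 134 and 156 with rmCIRP. The log2 fold change was 0.02, with a 95% interval of -0.59 to 0.63. S100a10 had 3484, 3207 and 3553 with PBS and 3329, 3509 and 3492 with rmCIRP, a change of 0.02 with the narrow interval of -0.10 to 0.13. S100a6 had 58041, 55474 and 56234 with PBS and 57794, 56242 and 58303 with rmCIRP (0.03, interval -0.07 to 0.12). For these genes the groups overlapped.

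S100a4 had the largest change of the 8 in this comparison, and it did not pass. It had 388, 462 and 512 normalised counts with PBS and 355, 244 and 319 with rmCIRP in cells labelled TLR4-/-, without overlap (1 of the 8 genes, and 13.7% of all), and its log2 fold change of -0.57 ± 0.17 had an unadjusted p of 0.0037 and an edgeR adjusted p of 0.47. Its sign was that of the WT cells, and it was the single gene of the 8 with an unadjusted p under 0.05 (6.99% of all genes). These counts are near the shares of all genes. Hmgb2 gave -0.07 (interval -0.25 to 0.10) and Ager -0.29 (interval -0.76 to 0.18).

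The responses of the genotypes to rmCIRP were then set against each other, as TLR4-/- minus WT. It passed for 3 of 8 genes, against 31.4% of all genes. For S100a10 it was -0.54 ± 0.08 on the log2 scale (edgeR adjusted p = 2.50e-05), and no fit without 1 library lost it. For S100a6 it was 0.22 ± 0.06 (edgeR adjusted p = 0.014). For S100a8 it was -1.02 ± 0.41 (edgeR adjusted p = 0.071), lost in 5 fits without 1 library of the WT or TLR4-/- cells with PBS or rmCIRP, where the adjusted p rose to at most 0.14, and with an adjusted p of 0.00082 without the library that stood apart. Ager gave -0.56 (interval -1.21 to 0.09, edgeR adjusted p = 0.21).

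Other S100 genes differed in the direction of S100a6, opposite to S100a8 and S100a10. Of the 6 tested, 4 had a more positive response in cells labelled TLR4-/- (17.1% of all genes were called in this direction), with S100a3 at 1.84 (edgeR adjusted p = 0.016), S100a13 at 0.44 (edgeR adjusted p = 0.00053), S100a16 at 0.41 (edgeR adjusted p = 0.0010) and S100a1 at 0.22 (edgeR adjusted p = 0.019). Among the partners, Ahnak differed by 1.04 (edgeR adjusted p = 1.66e-10), Cacybp by -0.60 (edgeR adjusted p = 2.68e-06) and Anxa2 by 0.16 (edgeR adjusted p = 0.019). Cd14 differed by -1.76 (edgeR adjusted p = 1.48e-08) and Tlr2 by -1.68 (edgeR adjusted p = 3.03e-09).

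**Figure D4:**
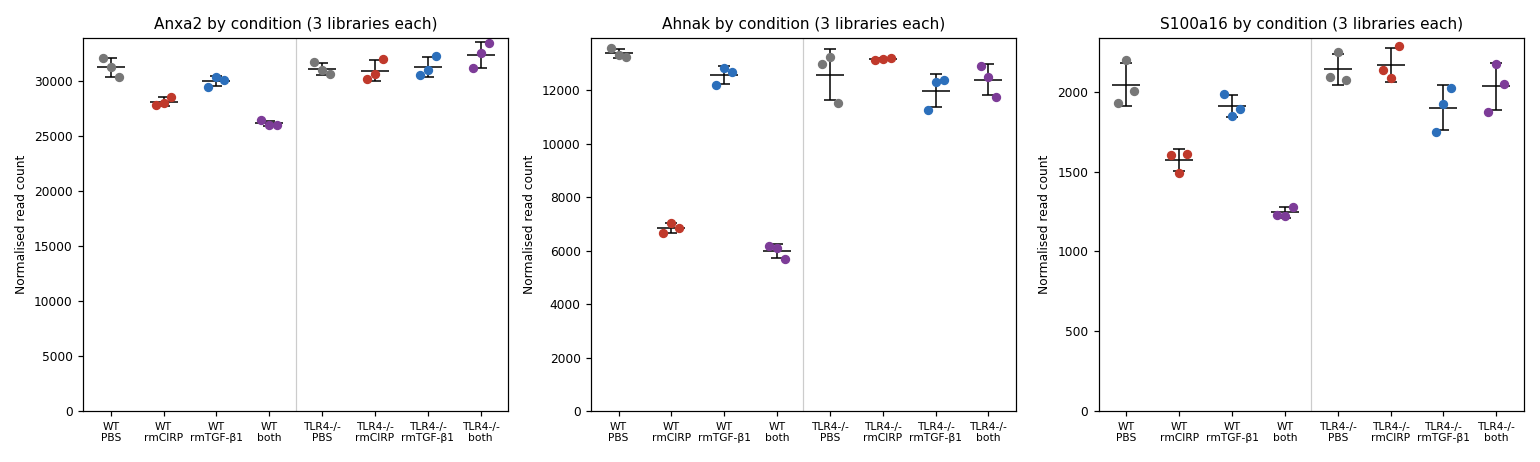
Normalised read counts (vertical axes, from 0) of Anxa2 and Ahnak, which encode partners of S100A10, and of S100a16 in the 8 conditions, with 1 point per library and the mean ± SD of 3 libraries. All 3 are lower in WT cells with rmCIRP than with PBS (Anxa2 28134 and 31266, Ahnak 6847 and 13377, S100a16 1570 and 2045), the opposite of S100a10.

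With rmTGF-β1 present in all cells, the genotype difference in the rmCIRP response again passed for S100a10 and S100a6, 2 of 8 against 20.9% of all genes. S100a10 gave -0.36 ± 0.08 (edgeR adjusted p = 0.0024) and S100a6 0.19 ± 0.06 (edgeR adjusted p = 0.044, lost on leaving out 1 of 4 libraries). Here the library that stood apart mattered. S100a8 had 118, 147 and 384 normalised counts in the cells labelled TLR4-/- with both agents, against 112, 146 and 173 with rmTGF-β1 alone. The difference from WT was -0.63 ± 0.41 (edgeR adjusted p = 0.35), but -1.31 ± 0.24 without that library (edgeR adjusted p = 0.00022). Ager went from -0.78 (edgeR adjusted p = 0.12) to -1.07 (edgeR adjusted p = 0.021) and S100a4 from 0.50 (edgeR adjusted p = 0.21) to 0.66 (edgeR adjusted p = 0.048).

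The same library also held the lowest S100a11, 12603 normalised counts against 15273 and 15260 in its replicates, and the lowest Hmgb2 of its condition, 683 against 868 and 812. Its Il33 count was 550.1, against 66.1 and 78.3, and its endothelial marker sum was 737, against 390 and 309. Within the cells labelled TLR4-/-, rmCIRP added to rmTGF-β1 called 0 of the 8 genes (2.69% of all genes), with 1, S100a6, at an unadjusted p under 0.05 (17.9% of all genes) and called by DESeq2. S100a8 gave 0.57 ± 0.28 with the library and -0.11 ± 0.18 without it. On leaving out replicate 1 of the same condition instead, S100a8, S100a10 and S100a6 passed, so that this contrast turned on which libraries were kept. S100a6 gave -0.14 (edgeR adjusted p = 0.12) with all libraries and -0.11 without the one that stood apart.

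rmTGF-β1 in cells labelled TLR4-/- called 2 of the 8 genes, S100a4 and S100a6, both lower, against 23.9% of all genes called and 11.7% called lower. The libraries of 3 genes did not overlap (33.8% of all genes). S100a4 had 271, 216 and 330 normalised counts with rmTGF-β1, all below the PBS libraries, a log2 fold change of -0.72 ± 0.18 (SE; edgeR adjusted p = 0.0059). This was the largest fall of a member in the study, and it passed in all 24 fits without 1 library. In WT cells S100a4 had 319, 353 and 424 with rmTGF-β1 and did not pass. The direct test of that genotype difference gave -0.66 ± 0.25, with an unadjusted p of 0.014 and an edgeR adjusted p of 0.33, so a difference between the genotypes was not shown. S100a6 fell by 0.13 on the log2 scale (SE 0.05, edgeR adjusted p = 0.053). The response to rmTGF-β1 differed between the genotypes in 0 of the 8 genes (0.0861% of all genes), in DESeq2 too, and 2 had an unadjusted p under 0.05 (10.4% of all genes). Beside S100a4, S100a10 gave 0.24 ± 0.08 in this test (unadjusted p = 0.0068, edgeR adjusted p = 0.28).

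Added to rmCIRP in cells labelled TLR4-/-, rmTGF-β1 called 1 of the 8 genes, lower (32.8% of all genes called, 15.6% called lower). S100a6 had 47001, 48941 and 44672 normalised counts with both agents, a log2 fold change of -0.30 ± 0.05 (SE; edgeR adjusted p = 7.14e-05), and -0.26 without the library that stood apart. S100a6 was the member that passed in each of the 4 comparisons of cells with and without rmTGF-β1, always lower with it.

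Between the genotypes with PBS, the HMGB genes were those that differed, 2 of 8 genes against 47.1% of all, and 3 of 8 had libraries that did not overlap, against 51.7% of all. Hmgb2 had 887, 885 and 969 normalised counts in cells labelled TLR4-/- and 828, 671 and 772 in WT, without overlap, a log2 fold change of 0.27 ± 0.09 (SE; edgeR adjusted p = 0.016). Hmgb1 had 3515, 3329 and 3551 in cells labelled TLR4-/- and 3745, 3572 and 3761 in WT (-0.09 ± 0.03, edgeR adjusted p = 0.028), the smallest change that passed for any member. It did not pass with the 6 libraries alone (-0.08, edgeR adjusted p = 0.13) or without a filter on low counts (-0.08, edgeR adjusted p = 0.33). S100a6 gave 0.07 (interval -0.02 to 0.17), S100a10 -0.06 (interval -0.17 to 0.06), S100a8 0.19 (interval -0.43 to 0.81) and S100a4 0.24 (interval -0.11 to 0.59).

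Beside the higher Hmgb2, 6 of 10 proliferation markers were higher in cells labelled TLR4-/- with PBS and 0 lower (23.2% of all genes were called higher), with a summed level of 14127 to 15218 against 9985 to 13204. Pcna rose from 2255 to 3118 (0.46 ± 0.04, edgeR adjusted p = 3.36e-09) and Mki67 from 2009 to 2749 (0.45 ± 0.09, edgeR adjusted p = 0.00023). Of 14 macrophage markers 13 were higher and 1, Marco, lower. The neutrophil marker sum was 150 to 159 in cells labelled TLR4-/- and 36.9 to 52.0 in WT, where mean S100a8 was 151 and 132. For the alveolar type I markers the sums were 319 to 358 and 153 to 212, where mean Ager was 31.9 and 31.8. Neither S100a8 nor Ager passed in this comparison, and the part of these cells was not tested. Of the 9 other receptors 7 were higher, among them Trem1 (2.99 ± 0.11, edgeR adjusted p = 8.26e-16), Cd14 (1.56 ± 0.11, edgeR adjusted p = 8.60e-11) and Cd36 (1.34 ± 0.11, edgeR adjusted p = 1.30e-09). S100b, best known from glia, was lower, with 72.6 in WT and 20.1 in cells labelled TLR4-/- (-1.86 ± 0.24, edgeR adjusted p = 1.35e-06).

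Ranked over the 8 conditions, S100a10 gave the clearest order. WT cells with rmCIRP stood highest, WT cells with both agents came next and WT cells with rmTGF-β1 were lowest, each apart from its neighbour without overlap, and the other 5 conditions, between 3207 and 3983, overlapped with their neighbours. Hmgb2 was higher in each TLR4-/- condition mean (788 to 914) than in each WT condition mean (605 to 757). For S100a4 every neighbour in the order overlapped, from 454 in TLR4-/- cells with PBS to 272 in TLR4-/- cells with rmTGF-β1. Hmgb1 varied least, by 1.14 times from the lowest to the highest of the 24 libraries, against 4.86 times for S100a8.

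Genes with the most similar pattern over the 24 libraries were sought among 12304 genes as Pearson's r of log2 levels, a description without a test since the libraries share their conditions. For S100a8 they were Txnrd1 (r = 0.94), Ptpn22 (0.92) and Ptpn12 (0.92). For S100a10 they were Alas1 (0.95), Dcbld2 (0.94) and Sec24b (0.94), and for S100a6 Inppl1 (0.94), Ak3 (0.94) and Rcan2 (0.94). Hmgb2 was closest to Pkm (0.95), Tpi1 (0.95) and Gpi1 (0.95), all 3 genes of glycolysis. Only the 3 closest genes were kept, so how near the proliferation markers came to Hmgb2 is not given. S100a4 was closest to the smooth muscle gene Tagln (0.83), S100a11 to Hoxa3 (0.87), Hmgb1 to Hmgn5 (0.80) and Ager to Rtn4rl2 (0.72). Among the members themselves, S100a8 and S100a10 had r = 0.81 and S100a6 and Hmgb2 r = 0.80.

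Reads of near-identical copies could affect Hmgb1, which has many processed copies in the mouse genome. The 14 Hmgb1 copies named in the files took 16 to 50 raw reads per library together, far below Hmgb1 itself, and 6.07% to 6.82% of the reads in a library matched several places and were given to no gene.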

How the data were processed

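Total RNA libraries (TruSeq Stranded, NextSeq 550) of 24 pulmonary fibroblast cultures were deposited as raw read counts per gene symbol. The authors had aligned reads with STAR to a mouse GENCODE reference and counted them with ht-seq. Tool versions, annotation release and strand setting are not given in the sources used here, and the build is NCBIM37 per the submitters' processing notes. Tally lines, 14.5% to 16.1% of reads, were left out.

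Counts were analysed in R 4.3.3 with edgeR 4.0.16 (filterByExpr, TMM, 1 mean per condition, all 24 libraries, quasi-likelihood F-test, Benjamini-Hochberg over 16258 genes, adjusted p below 0.1), after a check on simulated data. Normalised counts used DESeq2 1.42.0 size factors. SDs and SEs cover the spread between libraries, and intervals are 95%. Symbols were used as given, of which 53292 of 55291 were in GENCODE M21. Alternatives were DESeq2, RLE normalization, no filter, a mean of at least 10 counts, a replicate block, only the libraries compared, and leaving out each library. Named were all 9 members, at most 5 genes of a list with the largest change that passed, genes tied to a member's result, and the 3 genes most similar to each member. The members and lists were chosen with earlier results of these data known, so they support nothing by themselves.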

Additional observations from a re-analysis of the deposited data

Results flagged for a closer look

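The response to rmCIRP differed between WT cells and cells labelled TLR4-/- by a direct test for 3 of the genes. In that test 31.4% of all genes passed, so the count is no result about the family. On the log2 scale, TLR4-/- minus WT, S100a8 differed by -1.02 (edgeR adjusted p = 0.071), S100a10 by -0.54 (edgeR adjusted p = 2.50e-05) and S100a6 by 0.22 (edgeR adjusted p = 0.014). With rmTGF-β1 present in all cells, where 20.9% of all genes passed, S100a10 differed by -0.36 (edgeR adjusted p = 0.0024) and S100a6 by 0.19 (edgeR adjusted p = 0.044). The macrophage marker sum, 93582 to 101820 in WT and 352950 to 402480 in cells labelled TLR4-/- with PBS, differed between the same groups, and its part was not tested.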

How the results depend on the processing

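No call of a member changed direction. For WT rmCIRP the number of members called went from 5 to 4 in DESeq2, with RLE normalization, with a mean count of at least 10 and with the block, each time without Hmgb2 (adjusted p 0.12, 0.11, 0.13 and 0.11). Without a filter on low counts the number went from 2 to 4 for WT rmTGF-β1 against PBS, 0 to 1 for TLR4-/- rmCIRP, 0 to 3 for TLR4-/- rmCIRP added to rmTGF-β1, 1 to 2 for TLR4-/- rmTGF-β1 added to rmCIRP, 0 to 1 for the genotype difference in the rmTGF-β1 response and 2 to 4 for that in the rmCIRP response with rmTGF-β1. With only the libraries compared it went from 3 to 5 for WT rmCIRP added to rmTGF-β1, 2 to 4 for WT rmTGF-β1 added to rmCIRP and 2 to 1 for the genotype difference in the rmCIRP response with rmTGF-β1. For WT rmCIRP added to rmTGF-β1, Ager (edgeR adjusted p = 0.1008) also passed with RLE normalization, with a mean count of at least 10 and with the block. DESeq2 called 1 rather than 0 for TLR4-/- rmCIRP added to rmTGF-β1. The cause was not tested. Leaving out each library gave 3 to 5 members for WT rmCIRP, 0 to 3 for WT rmTGF-β1, 3 to 5 and 2 to 4 for each agent added to the other in WT, 0 to 0 for TLR4-/- rmCIRP, 1 to 2 for TLR4-/- rmTGF-β1, 0 to 3 and 1 to 4 for rmCIRP and rmTGF-β1 added to the other in TLR4-/-, 1 to 2 for the genotypes with PBS and 2 to 3, 0 to 0 and 1 to 5 for the genotype differences in the responses to rmCIRP, rmTGF-β1 and rmCIRP with rmTGF-β1.

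Not every value of a member was followed through these fits. Among the 58 that were, 5 values not called with all libraries changed sign on leaving out 1 library. They ranged from -0.053 to 0.014 for S100a11 in WT with rmCIRP, -0.087 to 0.13 for S100a8 and -0.026 to 0.041 for S100a10 in TLR4-/- with rmCIRP and -0.088 to 0.028 for S100a10 between genotypes with PBS, all near 0. S100a8 in TLR4-/- with rmCIRP added to rmTGF-β1 was 0.57 and ranged from -0.11 without replicate 3 of both agents to 0.86 without replicate 1, where it was called (adjusted p = 0.034).

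Counts over all genes depended on the setting where few were called. TLR4-/- rmCIRP gave 0, against 33 in DESeq2, 149 without a filter, 29 with only the libraries compared and 1 with the block. TLR4-/- rmCIRP added to rmTGF-β1 gave 437, against 902, 1580, 0 and 810. On leaving out 1 library it ranged from 0 to 2674, with 0 and 2141 without replicates 1 and 3 of rmTGF-β1, and 2674 and 1 without replicates 1 and 3 of both agents. TLR4-/- rmTGF-β1 added to rmCIRP gave 5329, against 2710 with only the libraries compared. The genotype difference in the rmTGF-β1 response gave 14, against 163 in DESeq2 and 563 without a filter, and the WT interaction 8, against 37, 198 and 125 with only the libraries compared. WT rmTGF-β1 gave 2019, and 1253 without replicate 3 of PBS or 1029 without replicate 2 of rmTGF-β1. TLR4-/- rmTGF-β1 gave 3884, and 2517 without its replicate 3.

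Replicate numbers showed little pairing of the libraries. The mean correlation of deviations was 0.01 over 84 pairs, from -0.12 to 0.37, with 4 pairs over 0.1. Of the 24 libraries, 12 were closest to their own number. A replicate block left Hmgb2 in WT with rmCIRP at -0.19 and above the threshold (adjusted p = 0.11). With the block, Ager in WT with rmCIRP added to rmTGF-β1 passed the threshold. Ager, at 39 raw reads or fewer, is limited by depth. S100a9, at 0 reads, gave nothing to test, and the reason for its lack of reads was not tested.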
